A study of Mus musculus with 3 samples.

Results

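M3 is a group of mitral cells of the mouse olfactory bulb (OB), so named by the study beside M1 and M2. Its members were taken from the deposited annotation of single nuclei, as the nuclei with subcluster number 7. They were 326 of the 7504 nuclei in projection neuron subclusters and of 31703 nuclei in all. The M1, M2 and total mitral cell counts in the study's binomial tests leave fewer nuclei for M3 than this, a gap that was not resolved here. Mouse 1 gave 69 of the 326 nuclei, mouse 2 gave 174 and mouse 3 gave 83. Against all projection neuron subclusters these were 4.43% (exact 95% binomial interval 3.46 to 5.57), 3.99% (3.43 to 4.62) and 5.23% (4.19 to 6.45). The intervals of the mice overlapped, and the shares averaged 4.55% ± 0.630 (SD, n = 3). Among nuclei with at least 1500 detected genes the mean share was 2.87% ± 0.431. M3 was set beside M1 (subcluster 5, 686 nuclei) and M2 (subcluster 1, 1149), the other mitral cell groups. The tufted cell groups T1 (0, 2128 nuclei), ET1 (4, 703), ET2 (6, 471) and ET4 (3, 883) were included as well.

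The 3 mice were adult male C57Bl/6 animals and form 1 group, with no untreated animals beside them. Each had received rAAVretro-CAG-H2B-GFP, a retrogradely transported virus that makes nuclei fluoresce, in 2 cortical targets of the bulb, the piriform cortex (PCx) and the anterior olfactory nucleus (AON). Nuclei of the injected side's bulb were sorted for GFP and the DNA dye DRAQ5 and sequenced with a droplet method that reads transcripts at their 3′ end, 1 library per mouse. The label reaches neurons whose axons took up virus at the injection sites, and the sort also let inhibitory nuclei through, so neither the shares nor the levels describe the whole bulb. Position in the mitral cell layer is not part of these data.

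Mitral and tufted cells are the glutamatergic output neurons of the OB. They receive olfactory nerve input in glomeruli, exchange signals with inhibitory granule cells through dendrodendritic synapses and send axons to olfactory cortex. M3 is followed here by 4 marker genes, each of them on the study's list for M3. Cadps2 encodes a priming factor for dense-core vesicles, the organelles that store neuropeptides and neurotrophins. Fst encodes follistatin, a secreted protein that binds activins and blocks their receptors' activation. Calca encodes calcitonin and calcitonin gene-related peptide (CGRP), and Cdkn1c encodes the cyclin-dependent kinase inhibitor p57Kip2, expressed from the maternal allele.

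The subclusters had been formed on the same counts that are compared here. Every difference between M3 and another subcluster below therefore describes how far the sums per mouse lay apart relative to the spread between mice, and is no independent test. UMIs (unique molecular identifiers, each 1 captured molecule) were summed over the nuclei of a subcluster in a mouse, which gave 21 libraries, and levels are UMIs per 1000000 UMIs of such a library (CPM). A gene was called higher or lower where its log2 fold change was beyond 1 and its p-value in edgeR's quasi-likelihood test, adjusted by Benjamini-Hochberg over 14696 genes, was under 0.05. Log2 fold changes carry standard errors (SE).

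M3 nuclei were the shallowest of the 7 subclusters. Their median was 6866, 5661.5 and 4402 UMIs in mice 1, 2 and 3, against medians from 10419 (ET4) to 20781 (M2) for the other subclusters over all mice. Fewer than 1500 genes were detected in 38.3% of M3 nuclei, against 0.680% to 3.50% in the others. The 3 M3 libraries held 550818, 1132800 and 620677 UMIs. Ribosomal protein genes took 0.884%, 0.819% and 0.573% of them, against 0.232% to 0.625% in the 18 other libraries. Mitochondrial genes took 0.068%, 0.132% and 0.075% of M3 UMIs, against 0.024% to 0.051% in the M1 and M2 libraries and up to 0.182% in ET4. The part of depth and RNA quality in the differences was tested only as far as the alternatives below go. The M1 library of mouse 1 came from 14 nuclei and stood apart from the other M1 libraries. It is named below for several of the values that rest on it, not for each, and it enters every M1 mean with the same weight as the others. Pairs of mice shared 39, 8 and 35 barcodes, none of them in M3 in both mice.

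The label was checked against its 4 markers within M3, by the cluster of all nuclei that each M3 nucleus also belonged to. The authors' first clustering, here called main clusters, placed 223 M3 nuclei (68.4%) in main cluster 5, most of whose other nuclei were M2. It placed 8 in main cluster 13, of which 95.5% were M1, 70 (21.5%) in main cluster 2, of which 76.6% were T1, and 25 (7.67%) in main cluster 4, where ET4 and ET1 were the largest groups. Cadps2 stood at 561 CPM in the M3 nuclei of main cluster 5 (95% Poisson interval 528 to 595) and at 579 (410 to 795) in those of main cluster 13. It stood at 8.86 (1.07 to 32.0) in those of main cluster 2 and at 55.5 (18 to 129) in those of main cluster 4. Fst followed the same order, with 861 and 1494 CPM in main clusters 5 and 13 and 8.86 and 11.1 in main clusters 2 and 4. Of the 8 nuclei of main cluster 13, 7 came from mouse 1 and 1 from mouse 2, which held no UMI of the 4 markers. A UMI of at least 1 of the 4 markers was found in 183 of the 223 nuclei of main cluster 5 and in 7 of the 8 of main cluster 13, and in 4 of 70 and 4 of 25 in main clusters 2 and 4.

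Olfr111 and Ly6g6e, picked from the study's lists for T1 and ET4, were read in the 95 nuclei of main clusters 2 and 4. The other genes of these lists are not given for these nuclei. Olfr111, an odorant receptor gene that the study lists for T1, stood at 802 CPM in the M3 nuclei of main cluster 2 (525, 1056 and 238 in mice 1, 2 and 3) and at 9.88 in those of main cluster 5. Ly6g6e, listed for ET4, stood at 400 CPM in the M3 nuclei of main cluster 4 and at 22.9 in those of main cluster 5. Of the 25 nuclei of main cluster 4, 21 came from mouse 2 and 1 from mouse 1. Genes of other groups were counted too. The study's M1 genes summed to 477 CPM in the M3 nuclei of main cluster 4 and to 333 in those of main cluster 5. Its M2 genes summed to 408 CPM in those of main cluster 2 and to 1263 in those of main cluster 5. The nuclei of main clusters 2 and 4 were shallow, with medians of 2874.5 and 3409 UMIs against 8306 in main cluster 5. Gad1, an inhibitory neuron enzyme, was at 279 and 211 CPM in them against 72.8 in main cluster 5, and the vesicular glutamate transporter gene Slc17a7 was at 492, 166 and 379 CPM. The Poisson and binomial intervals cover counting error only. Counts of called genes are given below also for M3 restricted to main cluster 5, an alternative chosen after these values had been seen.

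**Figure D1:**
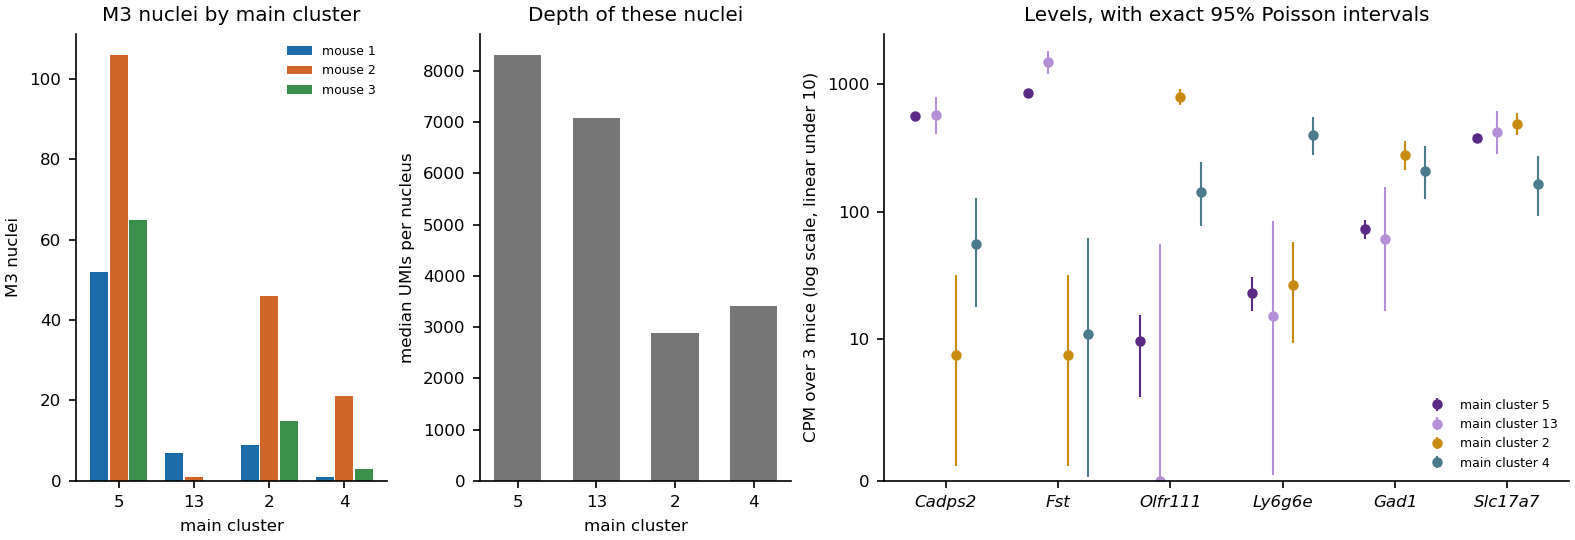
Number of M3 nuclei by main cluster and mouse (left), their median UMIs per nucleus (middle), and the CPM of 6 genes in each part with exact 95% Poisson intervals (right, log scale, linear under 10). Cadps2 and Fst are high in the parts of main clusters 5 and 13, Olfr111 in that of main cluster 2 (802 CPM) and Ly6g6e in that of main cluster 4 (400 CPM).

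The markers were found together in the same nuclei. Of 326 M3 nuclei, 128 had no UMI of any of the 4 genes, 40 had 1 of them, 93 had 2, 50 had 3 and 15 had all 4. At least 1 was found in 75.4%, 59.2% and 51.8% of nuclei in mice 1, 2 and 3. Depth moved with these shares, with 24.5% of the 163 nuclei of fewest UMIs (median 3227) and 96.9% of the 163 of most UMIs (median 10079) having a marker UMI. Fst was found in 154 of the 166 nuclei with a Cadps2 UMI (92.8%), whose median was 9732 UMIs, and in 29 of the 160 without (18.1%), whose median was 3253.5. All 42 nuclei with a Cdkn1c UMI had Fst and 40 had Cadps2, while Calca was found in 16 of them. Among 45 nuclei with a Calca UMI, 42 had Fst and 39 had Cadps2.

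To compare detection at 1 depth, each nucleus was thinned to 2000 UMIs, which left 319 M3 nuclei. Cadps2 was then found in 34.8% of M3 nuclei (50.9% before thinning), and by mouse in 52.9%, 31.5% and 26.5%. For Fst the thinned share was 48.6% (56.1% before), with 64.7%, 45.2% and 42.2% by mouse. M1 nuclei reached 11.5% and 18.7% for these genes and M2 nuclei 2.35% and 10.6%. In nuclei outside the projection neuron subclusters, which give the level of free RNA together with that of other expressing cells, the thinned shares were 4.16% for Cadps2 and 1.82% for Fst (11% and 4.91% before, median 7487 UMIs). Mouse by mouse, M3 stood above these nuclei for both genes. In the 89 thinned M3 nuclei of main clusters 2 and 4 Cadps2 was found in 3.37% and Fst in 1.12%, below the pooled level outside the projection neurons. Thinned to 4000 UMIs, 19 of these nuclei were left, with Cadps2 in 21.1% and Fst in 5.26%, against 6.54% and 3.13% outside the projection neurons, and all of the Cadps2 nuclei came from mouse 2.

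Calca and Cdkn1c were sparse at this depth. Thinned to 2000 UMIs, 6.58% of M3 nuclei had Calca (13.8% before) and 3.45% had Cdkn1c (12.9% before), against 0.440% and 0.166% of nuclei outside the projection neuron subclusters (1.14% and 0.525% before). At 4000 UMIs, which left 206 M3 nuclei, the shares rose to 13.6% for both and to 69.9% for Cadps2 and 77.7% for Fst. The set of nuclei changed as well, as those of main clusters 2 and 4 went from 89 of 319 to 19 of 206. Within main cluster 5 (222 and then 180 nuclei), Calca went from 7.66% to 12.8% and Cdkn1c from 4.5% to 13.9%. A nucleus without a UMI of Calca or Cdkn1c can thus not be called negative at these depths.

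**Figure D2:**
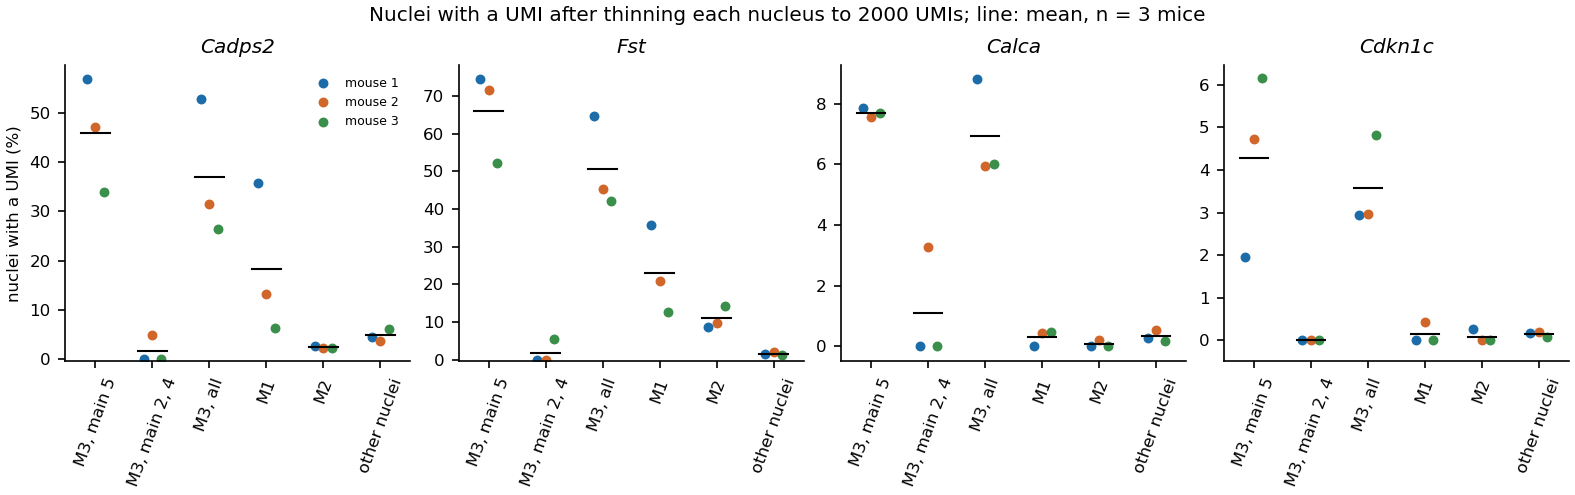
Share of nuclei with at least 1 UMI of each marker after thinning each nucleus to 2000 UMIs, in percent, by mouse (points) with the mean of 3 mice (line). M3 nuclei of main cluster 5 lie highest for Cadps2 and Fst, and M3 nuclei of main clusters 2 and 4 lie below them in each mouse for both genes.

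Across all genes, 789 were called higher in M3 than the mean of the other 6 subclusters (5.37% of those tested) and 470 lower (3.2%). In 340 genes (2.31%) each of the 3 M3 libraries lay above all 18 others, and in 97 genes (0.66%) below all of them. Of the called genes, 171 higher and 52 lower ones were separated in this way. Against M2, 1443 genes were higher (9.82%) and 1085 lower (7.38%), and against M1, 954 were higher (6.49%) and 859 lower (5.85%). Because the subclusters come from the same counts, nothing is read from these shares beyond serving as the background for the lists below. The split depended on the scaling. With library sizes in place of TMM factors the median log2 fold change of all genes rose by 0.21 against the mean of the others, by 0.31 against M2 and by 0.21 against M1. The share of called genes that were higher then went from 62.7% to 82.9%, from 57.1% to 78.9% and from 52.6% to 70.8%. No named gene that was called under either scaling changed its direction between them. Sign changes of genes not called were not counted. Restricted to main cluster 5, M3 had 744 genes higher and 623 lower than the mean of the others. With the other subclusters restricted to nuclei between the 5th and 95th percentiles of UMIs per M3 nucleus (2275.75 to 15407.25), here called the UMI window, 468 were higher and 207 lower than the mean of the others, 671 and 472 than M2, and 278 and 291 than M1.

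Cadps2 was the most even of the markers between mice. It stood at 519, 469 and 493 CPM in the M3 libraries of mice 1, 2 and 3, and at 297, 90.6 and 63.0 in those of M1. In the remaining 5 subclusters its means lay between 8.63 and 13.3 CPM. All M3 libraries lay above the 18 others, although the M1 library of mouse 1 came close to them. The log2 fold change was 4.75 ± 0.17 against the mean of the others, 4.90 ± 0.28 against M2 and 2.14 ± 0.28 against M1. Without the M1 library of mouse 1 the first of these was 4.79, and with the other subclusters in the UMI window it was 4.75. The gene lies at chr6:23262773-23839421 on the minus strand (GRCm38) and holds the genes Rnf133 and Rnf148, whose reads cannot be told from its own where they share sequence. Cadps2 was not particular to projection neurons, since main cluster 8, outside them, held 432 ± 175 CPM (SD, n = 3).

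Fst reached 1000, 672 and 715 CPM in M3. Its M1 libraries had 396, 144 and 87.1 CPM, M2 averaged 60.6, and the tufted cell groups lay between 2.82 (T1) and 7.72 (ET4), so the gene fell in steps from M3 over M1 and M2 to the tufted cells. The log2 fold change was 5.71 ± 0.23 against the mean of the others, 3.38 ± 0.34 against M2 and 2.22 ± 0.36 against M1. Outside the projection neurons no main cluster averaged above 31.1 CPM. Fst lies at chr13:114452290-114458951 on the minus strand, with the antisense gene Gm47040 over it, and whether the counting used strand is not given in the sources used here.

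Calca was at 69.0, 41.5 and 30.6 CPM in M3 and at no more than 6.19 in any of the other 18 libraries, the highest of which was the M1 library of mouse 1. The log2 fold change was 5.57 ± 0.34 against the mean of the others and 5.13 ± 0.58 against M1. Counts per gene do not tell the calcitonin and CGRP transcripts apart, which arise from this gene by splicing. Cdkn1c was at 52.6, 32.7 and 29.0 CPM in M3 and at no more than 1.99 elsewhere. M1 was the next subcluster by mean, with 1.68 and 1.99 CPM in mice 2 and 3 and no UMI in the library of 14 nuclei of mouse 1. The log2 fold change was 4.16 ± 0.54 against M1 and 6.15 ± 0.55 against M2. ET1 had no Cdkn1c UMI, so its fitted difference from the mean of all others depends on the prior count. Cdkn1c lies at chr7:143458339-143461050 on the minus strand and overlaps the antisense gene Gm44732.

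**Figure D3:**
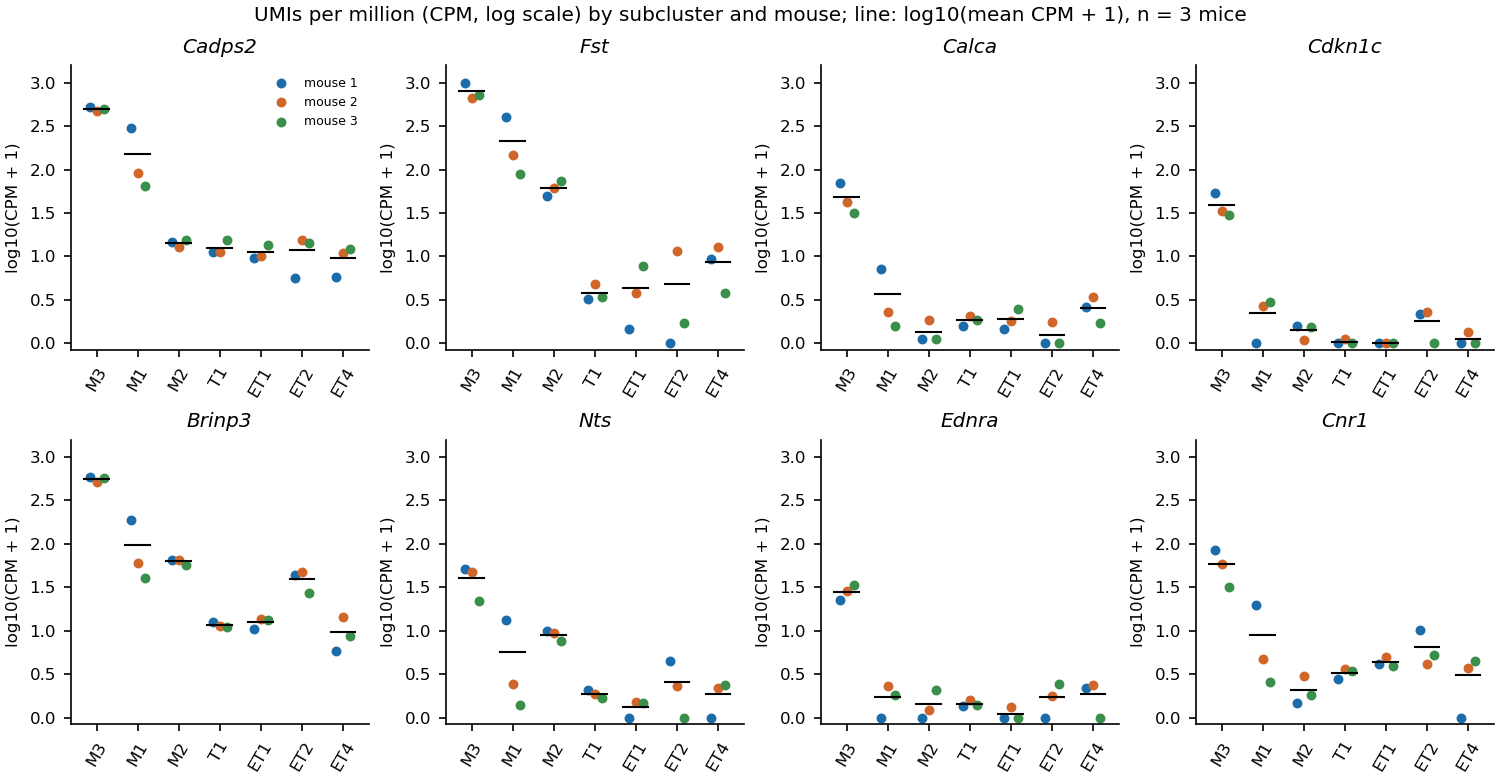
Levels of 8 genes as log10(CPM + 1) in each subcluster and mouse (points) with log10 of the mean CPM + 1 of 3 mice (line). The 3 M3 libraries lie above the 18 others for each gene, and the M1 library of mouse 1 is the nearest for at least Cadps2, Fst, Calca and Cnr1.

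Because the peptide genes and the vesicle gene of M3 were found higher together, the bases before their start sites are shown. RefSeq promoter entries (GRCm38.p6) were matched by symbol for 12 of the 16 genes that are listed for M3 or lead its differences, and the 250 bases before the start are printed for 3 of them, 5′ to 3′ on the gene's strand. Capitals mark the motifs found. Searched on both strands were TATAAA (the TATA box), TGACGTCA (the cAMP response element), CCGGAAG (an ETS core), GGTGTGA (a T-box core), CCAAT and CACGTG (an E-box), none of which contains another.
Cadps2, chr6:23839422-23839671, minus strand: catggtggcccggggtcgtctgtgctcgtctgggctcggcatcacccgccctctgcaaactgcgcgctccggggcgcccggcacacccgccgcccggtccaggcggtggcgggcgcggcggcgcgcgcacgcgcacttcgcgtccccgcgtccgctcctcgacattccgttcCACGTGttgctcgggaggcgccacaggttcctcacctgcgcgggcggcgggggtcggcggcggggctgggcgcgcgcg
Calca, chr7:114636358-114636607, minus strand: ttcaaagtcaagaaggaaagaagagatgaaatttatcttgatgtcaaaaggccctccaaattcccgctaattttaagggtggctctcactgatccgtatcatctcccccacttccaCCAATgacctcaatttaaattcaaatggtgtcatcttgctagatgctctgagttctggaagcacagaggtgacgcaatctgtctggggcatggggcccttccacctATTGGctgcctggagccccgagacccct
Nts, chr10:102490419-102490668, minus strand: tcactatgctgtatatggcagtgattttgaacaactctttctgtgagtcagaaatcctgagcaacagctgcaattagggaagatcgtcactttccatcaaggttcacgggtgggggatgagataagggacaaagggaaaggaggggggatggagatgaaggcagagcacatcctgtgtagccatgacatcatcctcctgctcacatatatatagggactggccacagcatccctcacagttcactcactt
The 3 sequences had no motif in common. Cadps2 had a start region of 78% G and C with 44 CpG pairs, and its E-box lay 78 bases before the start. Calca and Nts both had 48%, with 4 and 2 CpG pairs, against a median of 52.4% and 6 CpG pairs over 32851 RefSeq promoters. Calca held CCAAT 134 bases and, on the other strand, 28 bases before the start, and the Nts window held none of the 6 motifs. CCAAT was found in 33.8% of all promoters and the E-box in 6.02%. Among the 156 promoters of 119 genes that were called higher and separated in M3, the shares were 36.5% and 8.97%. The cAMP response element was found in 1.55% of all promoters and in 3.85% of this set, on 6 promoters. The TATA box (12.4% and 8.97%), ETS core (6.91% and 5.77%) and T-box core (3.33% and 2.56%) were less frequent in the set. These shares were not compared by a test. A match describes letters in this window and not a binding site.

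Of the 10 genes that the study lists for M3, each was called higher against the mean of the others, 10 against M2 and 9 against M1, where 5.37%, 9.82% and 6.49% of all genes were. The study chose these genes on the same nuclei, so the count is not independent evidence. Apart from the nuclei, it stained tissue sections for some of their RNAs. It reported Cadps2 together with Calca or Fst in cells of the mitral cell layer, and rarely with Kcng1 or Vgll2. The median log2 fold change of the 10 genes was 5.38, against -0.05 for all genes tested. Ednra, the endothelin A receptor gene, was at 21.8, 27.4 and 32.2 CPM in M3 and at no more than 1.41 elsewhere. Ets1, which encodes an ETS family transcription factor, was at 18.2, 31.8 and 11.3 CPM and at no more than 1.79 elsewhere. Cnr1, the cannabinoid receptor 1 gene, was at 83.5, 57.4 and 30.6 CPM, against 18.6 in the M1 library of mouse 1 and at most 9.26 in the rest. Mouse 1 was highest and mouse 3 lowest for Cnr1, Calca and Cdkn1c, and not for Ednra or Ets1. Smoc2, which encodes a secreted matrix protein, was at 18.2, 18.5 and 19.3 CPM, and at 12.4, 4.07 and 6.57 in M1. Mustn1 was at 18.2, 17.7 and 8.06 CPM and at no more than 2.31 elsewhere.

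Ccno was the member of this list on which M3 and M1 were not told apart. It was at 5.45, 9.71 and 1.61 CPM in M3, on 15 UMIs in all, and averaged 4.84 in M1, where the library of mouse 1 held 12.4. Its log2 fold change against M1 was 1.93 ± 0.76, which was not called, and without mouse 2 its call against the mean of the others was lost.

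The genes with the largest separated differences added members that the study's list does not hold. Brinp3, which encodes a neural protein of the BMP and retinoic acid inducible family, was at 590, 517 and 567 CPM in M3, with M1 at 94.7 and M2 at 61.7 CPM on average. Its log2 fold change was 4.35 ± 0.16, and the 3 mice differed by less than for most of the other leading genes. Main clusters 10 and 11, outside the projection neurons, held more of it, 2424 and 2166 CPM. Nts, the neurotensin gene, was at 50.8, 46.8 and 20.9 CPM in M3 and at no more than 12.4 elsewhere, a level that the M1 library of mouse 1 reached with 2 of its 14 nuclei. Erbb2, a receptor tyrosine kinase gene, was at 12.7, 5.30 and 8.06 CPM on 18 UMIs. Fzd7, a Wnt receptor gene, was at 18.2, 10.6 and 8.06 CPM, and M1 at 5.69 was close enough that the difference of 0.89 ± 0.52 was not called. Sspo was at 12.7, 8.83 and 8.06 CPM on 22 UMIs. Vmn1r200, of the vomeronasal receptor family whose copies may share reads, was at 49.0, 15 and 19.3 CPM and at 6.51 in T1.

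The 10 lowest genes named for M3 rested on 0 to 2 UMIs. No UMI of 7 of the 52 separated lower genes was found among the 2304295 UMIs of M3, so the difference is a lower bound against 3 counts over the group (1.30 CPM). 6430710C18Rik, a non-coding transcript that averaged 150 CPM in ET4, was at least 25.1-fold lower than the mean of the others. Dna2, which encodes a nuclease and helicase of DNA replication, was at least 5.32-fold lower. Gja5 (connexin 40) was at least 3.37-fold, Fcnaos at least 3.19-fold, Ankrd39 at least 2.35-fold, Tfpi at least 2.26-fold and Tacr3, the neurokinin B receptor gene, at least 1.93-fold lower. The first 2 kept their call in each leave-one-out fit, and the other 5 lost it in at least 1 of these. Adgrv1, Trim43c and Gm13832 had 1, 1 and 2 UMIs in M3 and means of 4.47, 6.74 and 9.92 CPM in the others. The call of Adgrv1 was lost without any 1 of the mice and that of Trim43c without mouse 2 and in the UMI window. Those of Trim43c and Gm13832 were also lost in nuclei with no Gad1, Gad2 or Slc32a1 UMI.

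Dense-core vesicle genes were called in both directions. Of 16 tested, 4 were called higher against the mean of the others and 1 lower, against 5.37% and 3.2% of all genes, and the median log2 fold change was 0.10. Pcsk1, a prohormone convertase that cleaves peptide precursors, was at 236, 267 and 237 CPM, above all 18 other libraries, with M1 the next at 130. Its log2 fold change was 2.40 ± 0.19. Pcsk2, the other main convertase, was called lower, at 189, 223 and 258 CPM and below all 18 others (292 to 738), with a log2 fold change of -1.09 ± 0.12. Each convertase was thus separated in M3, in opposite directions. The granin genes Chga (390, 306 and 337 CPM) and Scg2 (735, 570 and 551 CPM) rose by 1.35 ± 0.14 and 1.16 ± 0.12 on the log2 scale. Cadps, the paralogue of Cadps2, stood at 910, 1022 and 1091 CPM in M3 and between 923 and 1499.9 in the others, with no call.

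Of 16 neuropeptide genes tested among 22 listed, 3 were called higher than the mean of the others, 13 were not called and none was lower, against 5.37% higher and 3.2% lower over all genes. The median log2 fold change was 0.76, against -0.05 for all genes. Against M2 and against M1, 7 were higher in each, where 9.82% and 6.49% of all genes were. Calca, Nts and Pdyn, the dynorphin precursor gene, were higher in all 3 contrasts, but Pdyn rested on 5 UMIs and lost its call without mouse 1. Cck, the cholecystokinin gene that is known from superficial tufted cells, was at 966, 704 and 654 CPM in M3. M1 averaged 148 and M2 121 CPM, while T1, ET1 and ET4 averaged 688, 595 and 778. M3 was thus called higher for Cck than M2 (2.35 ± 0.23) and M1 (2.2 ± 0.24) and not than the mean of the others (0.98 ± 0.16). In the study's list for M2, Nts was the single gene called higher in M3 than in M2, by 1.99 ± 0.42. Gal (galanin) was also higher than in M2 and M1, at 5.45, 9.71 and 12.9 CPM against means of 2.36 and 1.62, and lower on these values than T1, which averaged 39.1. Of 5 genes for receptors of the Calca peptides, Calcrl and Ramp3 had 2 UMIs each in M3 and Calcr had 0, and the other 2 were tested. Ramp1, which encodes the accessory subunit of the CGRP receptor, was at 19.97, 26.5 and 29 CPM. It was called higher than in M1 (1.99 ± 0.37), where the library of mouse 1 held 24.8 CPM and the others 6.71 and 2.99. Against the mean of the others its difference of 0.98 ± 0.28 was not called, and it gained the call in 6 of the alternatives. Ramp2, an accessory protein of these receptors, was at 3.63, 13.2 and 6.44 CPM and called higher, a call that was lost without mouse 2 or mouse 3 and in nuclei with no Gad1, Gad2 or Slc32a1 UMI.

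Activin and bone morphogenetic protein (BMP) signalling, which follistatin inhibits, was represented by 27 tested genes. Fst and Inhba were called higher and Gdf11 lower, near the 5.37% and 3.2% of all genes, and the median of -0.08 lay near that of all genes. The call of Gdf11 was lost without mouse 3 and in nuclei with no Gad1, Gad2 or Slc32a1 UMI. Inhba, which encodes the activin A subunit, was at 12.7, 15 and 4.83 CPM in M3, below M1 at 19 and above M2 at 0.927. Its log2 fold change was 1.49 ± 0.37 against the mean of the others and -0.53 ± 0.41, with no call, against M1, and the call was lost without mouse 2 and in those same nuclei. The type II receptor gene Acvr2a stood at 99.9, 132 and 163 CPM within the range of the others and was not called. Acvr1, a type I receptor gene, was lower than in M2 (-1.01 ± 0.19) and M1 (-1.83 ± 0.19). Against M1, 5 of the 27 were higher and 2 lower (6.49% and 5.85% of all genes), and the higher ones were Fst, Fstl5, Bmp6, Smad7 and Bmpr1b, another type I receptor gene (2.84 ± 0.29). Apart from Fst, this pathway had no gene with M3 called higher against each of the 3 references.

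Of 5 endothelin pathway genes tested, the receptor genes Ednra and Ednrb were called higher and Ece1, the processing enzyme, lower, against 5.37% and 3.2% of all genes. Ednrb was at 3.63, 12.4 and 1.61 CPM and lost its call in the nuclei of main cluster 5 alone and in nuclei with at least 1500 genes, while Ednra kept it in each alternative in which it was tested. Ece1 lost its call in 8 of the alternatives. Edn1, which encodes the ligand endothelin 1, had 1 UMI in M3 and averaged 129 CPM in ET2. Of 9 endocannabinoid pathway genes, Cnr1 was called higher against all 3 references (5.37%, 9.82% and 6.49% of all genes). The synthesis gene Dagla and the degradation gene Mgll were lower than in M1 (-1.53 ± 0.50 and -2.10 ± 0.21), and Mgll also lower than in M2.

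The 5 CDK inhibitor genes tested were each called higher in M3 than in M2, where 9.82% of all genes were, with a median log2 fold change of 2.48. Immediate early, inhibitory neuron and astrocyte genes had positive medians in the same contrast (1.61, 1.34 and 1.52), and their part in it was not tested. Cdkn1c and Cdkn2d were also called against the mean of the others. Cdkn2c gained that call with DESeq2. Cdkn1a gained it there too, in thinned libraries, with library sizes, the mouse as a block or no low-count filter, and without mouse 3. Cdkn2d (p19) was at 49.0, 34.4 and 24.2 CPM, with ET4 at 28.6 and M2 at 7.89 on average, and lost that call without mouse 1, in main cluster 5 alone and with the other subclusters in the UMI window. Cdkn1b (p27) was at 49.0, 30.0 and 24.2 CPM, higher than in M2 (1.79 ± 0.27) and M1 (1.16 ± 0.28). For Cdkn1b, Cdkn2d and Cdkn1c mouse 1 was highest and mouse 3 lowest, as for the share of ribosomal protein genes, whose part in these values was not tested. Of 23 imprinted genes tested, 4 were called higher and none lower than the mean of the others (5.37% and 3.2% of all genes), with a median of 0.20. Ndn, which encodes necdin, a protein of neurons that no longer divide, was at 231, 133 and 110 CPM, above all other libraries (at most 58.6), with a log2 fold change of 2.53 ± 0.15. Zdbf2 was at 56.3, 54.7 and 40.3 CPM and Nnat at 174, 101 and 74.1, and the latter lost its call without mouse 1 and with the same window. Kcnq1ot1, the non-coding transcript of the imprinted domain that holds Cdkn1c, was at 252, 393 and 503 CPM within the range of the others and was not called.

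Among 39 transcription factor genes of neuron types, 5 were called higher and 2 lower, against 5.37% and 3.2% of all genes, the latter a share near that of the list. Foxo1, a forkhead factor that the study lists for ET4, was at 147, 112 and 139 CPM in M3, between ET4 at 366 and ET1 at 51.3. M1 and M2 averaged 11.5 and 5.36, and the differences were 3.73 ± 0.21 and 4.29 ± 0.19. In the M3 nuclei of main cluster 5 alone Foxo1 was at 137 CPM. Sox5 (908, 880 and 1010 CPM), Tshz2 and Foxp2 were below M1 on average, and Foxp2 was called lower than in M1 (-2.28 ± 0.24). Nfib was at 79.9, 45.9 and 37.1 CPM and was higher than in M2 and M1. Cux1, a homeobox factor, was lower than the mean of the others and than M2 and lay near M1. Rora, the nuclear receptor gene, was lower in all 3 contrasts, at 1371, 1309 and 2217 CPM against 3069 in M1 and 4309 in M2. Tbx21, the T-box gene that marks mitral and tufted cells, was at 27.2, 12.4 and 33.8 CPM and lower than in M2 (-2.27 ± 0.36) and M1 (-2.26 ± 0.38). Among 15 ETS genes tested Ets1 was the only one called higher, and Etv6 was called lower, a call lost with library sizes in place of TMM, without mouse 1 and with the other subclusters in the UMI window.

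Ion channel genes were called in both directions. Of 30 voltage-gated potassium channel genes, 6 were called higher and 3 lower, and of 25 sodium, calcium and HCN channel genes, 2 were higher and 2 lower. The shares over all genes were 5.37% and 3.2%, and the second list lay near them. Kcnh3, an ether-à-go-go-like channel gene, was at 47.2, 45.9 and 32.2 CPM, above all other libraries (at most 18.6), and was higher in each of the 3 contrasts. Kcng1, a modifier subunit gene listed for M1, was at 32.7, 16.8 and 32.2 CPM, between M1 (66.0) and M2 (11.2). Kcnc2, which encodes a channel of fast-spiking neurons, was at 163, 142 and 129 CPM, near M1 (132) and far from M2 (8.53) and ET2 (810). Kcnc1, its relative, was lower at 94.4, 110 and 98.3 CPM.

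Among 14 genes for receptors of GABA, the transmitter of granule cells, 4 were called higher and 4 lower, against the same 5.37% and 3.2%. Gabrg3 was at 605, 501 and 258 CPM, higher than M1 (143) and M2 (20.3), although ET2 averaged 1399. The subunit gene Gabrb2 was lower, at 238, 350 and 511 CPM. Gabrb1, at 1717, 2127 and 2386 CPM, lay between M1 (4743) and M2 (1058). Gabrd, of extrasynaptic receptors, was at 34.5, 16.8 and 8.06 CPM, and its call was lost without mouse 1. Of 24 glutamate receptor genes, 2 were higher and 3 lower, of which the first is near the share of all genes. Grid1, a delta receptor gene, was at 890, 775 and 701 CPM, above all other libraries (at most 582), with a log2 fold change of 1.52 ± 0.12. Gria4 was lower, at 408, 998 and 627 CPM against 7060 in ET4, 1235 in M2 and 415 in M1.

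Cell adhesion and guidance genes were called in both directions too. Of 23 cadherin and protocadherin genes, 8 were called higher and 4 lower, against 5.37% and 3.2% of all genes. Pcdh19 was at 127, 124 and 104.7 CPM in M3, with M1 at 81.8 and M2 at 8.55 on average, and Pcdh20 at 38.1, 45.9 and 66.1. Both were separated from the 18 other libraries, and neither was called against M1. Cdh20 and Cdh13 were lower, at 12.7, 31.8 and 16.1 and at 19.97, 41.5 and 51.6 CPM. Of 39 axon guidance genes, 6 were higher and 4 lower. Sema3f, which encodes a secreted semaphorin, was at 59.9, 46.8 and 45.1 CPM, above all other libraries (at most 32.8). Nrp2, its receptor gene, was at 136, 132 and 93.4 CPM, between M1 (608) and M2 (47.5) and called different from both. The paralogous receptor gene Nrp1 was at 151, 167 and 172 CPM, also between them and in the reverse order, 4.16 higher than in M1 and 1.65 lower than in M2 on the log2 scale. Sema6d was at 441, 335 and 388 CPM, near M2 (477) and above M1 (133).

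**Figure D4:**
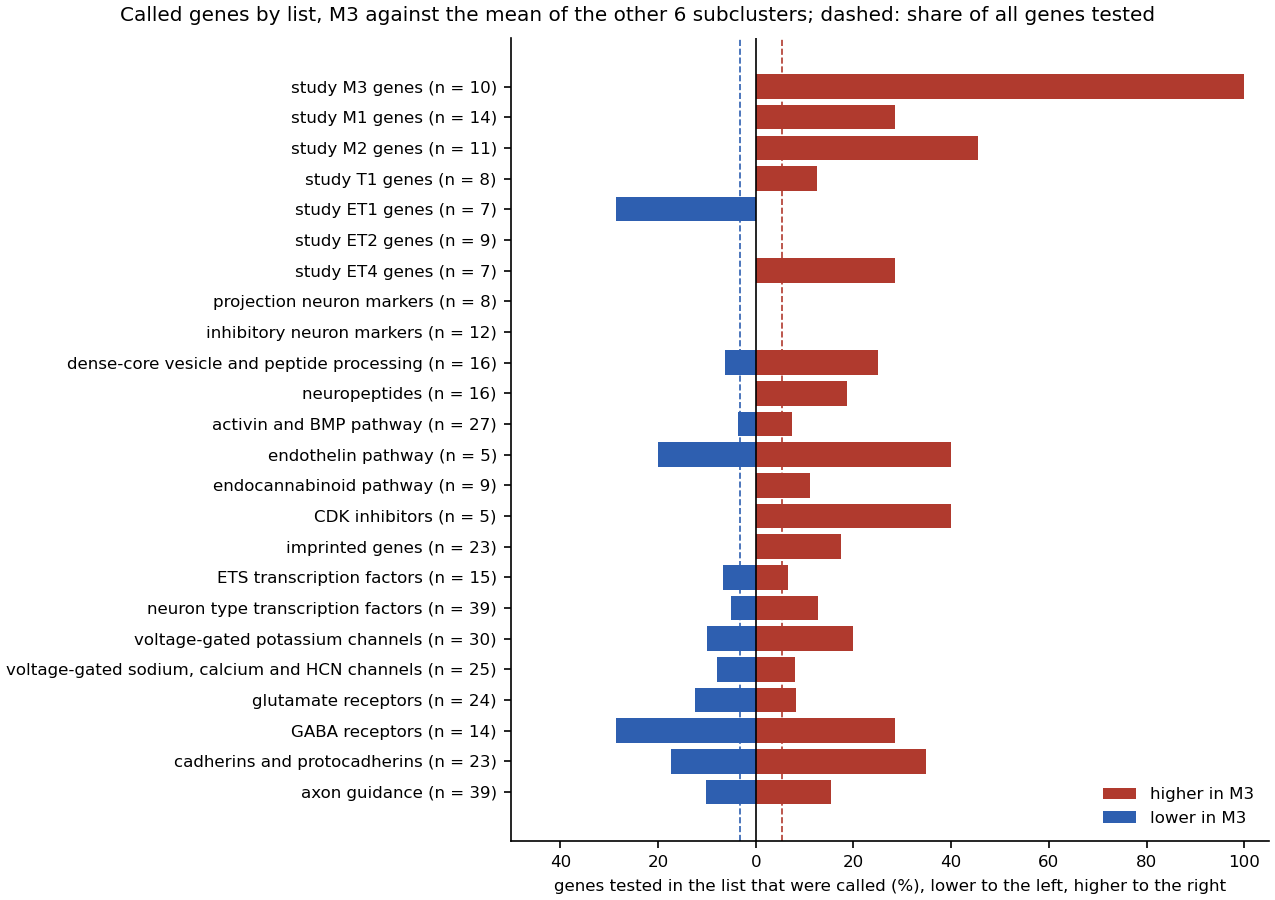
Share of the tested genes of each list (n in parentheses) that were called higher (right) or lower (left) in M3 against the mean of the other 6 subclusters, in percent. Dashed lines give the shares over all 14696 genes, 5.37% and 3.2%, and the M3 list was chosen by the study on these nuclei.

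Genes listed for the other mitral cells were mostly lower in M3 than in the group they are listed for. Of 14 genes listed for M1, 13 were lower in M3 than in M1 (5.85% of all genes), and 4 (Baiap3, Kcng1, Adgrl2 and Nrp2) were higher than the mean of the others (5.37% of all genes). Adgrl2 lost this call in thinned libraries and without mouse 2. Against M2, 3 of the 14 were higher (9.82% of all genes) and 11 were not called. Baiap3, which encodes a protein of dense-core vesicle traffic, was at 19.97, 12.4 and 17.7 CPM, not called different from M1 (24) and far from M2 (0.264). Of 11 genes listed for M2, 9 were lower in M3 than in M2 (7.38% of all genes), 1 (Nts) was higher (9.82%), and 5 were higher than the mean of the others. Against M1, 5 of the 11 were higher (6.49% of all genes) and 6 were not called. Piezo2, a mechanosensitive channel gene, was at 7.26, 22.1 and 58 CPM in M3 and 74.1 in M2 on average, and the mice differed in it more than in most named genes. These lists, too, were chosen by the study on the same nuclei. Over 11308 genes in libraries thinned to at most 550818 UMIs, M3 profiles of different mice correlated at r between 0.914 and 0.929. Within a mouse the most like subcluster was ET1 in mouse 1 (0.819, with M2 at 0.818), M1 in mouse 2 (0.873) and M2 in mouse 3 (0.879), and the least like was ET4 in each mouse (0.802, 0.842 and 0.804). The M1 library of mouse 1, at 0.814, held 161593 UMIs and was thus shallower than the rest. These values are across genes, which are no replicates, and the order of the other subclusters was not the same in the 3 mice.

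Markers of the tissue and of other cells were read for the whole of M3. None of 8 projection neuron markers tested differed from the mean of the others by a call, where 5.37% of all genes were higher and 3.2% lower. Slc17a7 was at 517, 313 and 392 CPM, Cdhr1 at 443, 364 and 432 and Eomes at 154, 117 and 74.1, each within or near the range of the other libraries. Slc17a6, the second glutamate transporter gene, was higher than in M2 (2.79 ± 0.20). Tbr1, a T-box factor gene of the list, was at 27.2, 37.1 and 16.1 CPM and higher than in M2 (1.29 ± 0.29) and M1 (2.31 ± 0.35), with ET2 at 85.1 on average. Inhibitory neuron markers summed to 536, 753 and 295 CPM in M3, against 131 to 999 in the 18 others. Nuclei outside the projection neuron subclusters held 5353 CPM. Within a mouse, the M3 sum was exceeded only by ET2, in mouse 1 (611 CPM) and mouse 2 (999 CPM). Against the mean of the others 0 of 12 were called. With the mouse as a replicate block, Sp9 and Slc32a1 gained a call as higher. Slc32a1 also gained it in thinned libraries, and Sp9 with no filter on low counts. Against M2 the median of these 12 was 1.34, all were above 0 and Sp9 and Gad2 were called higher. A UMI of Gad1, Gad2 or Slc32a1 was found in 58% of M3 nuclei, against 55.8% to 73.7% in the other subclusters, which were deeper. Astrocyte markers summed to 58.1, 78.6 and 108 CPM, against subcluster means from 33.1 (T1) to 275 (ET2), with 216 in M1. Aqp4 was called higher against the mean of the others. Against M2, Aqp4, Aldh1l1 and Slc1a3 were called higher (median of the 6 genes 1.52). Against M1, Aldh1l1 and Aqp4 were called higher and Slc1a2 lower. Oligodendrocyte markers summed to 152, 162 and 67.7 CPM, with Cldn11 called higher. The calls of Aqp4 and Cldn11 against the mean of the others rested on at most 20.9 CPM in a library and were lost without mouse 2 or mouse 3 and in nuclei with at least 1500 genes. That of Cldn11 was also lost without mouse 1 and in main cluster 5 alone, and that of Aqp4 in nuclei with no Gad1, Gad2 or Slc32a1 UMI. Immature neuron markers summed to 283, 276 and 264 CPM, within the range of the others, with Sox11 called lower, a call that was lost in 6 of the alternatives, among them thinned libraries, the UMI window and library sizes in place of TMM. Vascular and microglia markers had no call against the mean of the others, P2ry12 was lower than in M2, and Pdgfra, Cspg4 and Tmem119 were at 0 UMIs. The part of RNA from such cells in the differences was not tested. In nuclei with no Gad1, Gad2 or Slc32a1 UMI, 15 of the 99 named genes that could be tested lost their call. None of these was among the 16 leading genes, of which those with low counts may not have been tested here. Of 10 immediate early genes, which follow neuronal activity and handling, Egr1 was called higher (39.9, 67.1 and 37.1 CPM), against 5.37% of all genes. The call of Egr1 was lost without mouse 3. Fos gained a call with the mouse as a replicate block. Junb gained one with library sizes, without mouse 3 and in nuclei with at least 1500 genes or with no Gad1, Gad2 or Slc32a1 UMI. Against M2 the median of the 10 was 1.61, all were above 0 and Fos, Egr1 and Junb were called higher (9.82% of all genes). Against M1 the median was 0.78, with no call.

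The leading differences kept their direction when nuclei and libraries were exchanged, and their size moved. Over the alternatives in which it could be tested, the log2 fold change against the mean of the others ranged from 4.68 to 4.99 for Cadps2, from 5.45 to 6.58 for Fst, from 5.01 to 6.70 for Calca and from 4.18 to 4.61 for Brinp3. With the other subclusters restricted to the window of 2275.75 to 15407.25 UMIs per nucleus, Cadps2, Fst, Calca and Brinp3 were at 4.75, 5.54, 5.08 and 4.38, and 5 of the 16 leading genes could not be tested. With M3 restricted to main cluster 5 the same genes were at 4.93, 5.86, 5.57 and 4.57. Of the 16 genes so followed, Ccno alone lost its call, in 1 alternative.

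**Figure D5:**
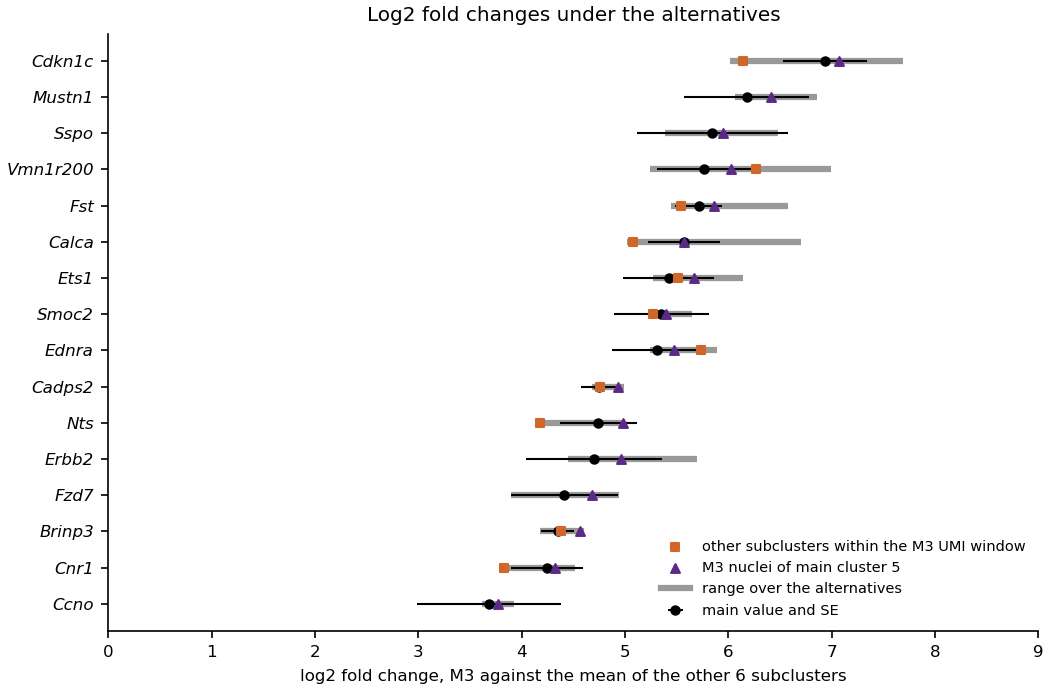
Log2 fold change of M3 against the mean of the other 6 subclusters (points, with SE), its range over the alternatives (grey), with the other subclusters held within the window of 2275.75 to 15407.25 UMIs per nucleus (squares) and with M3 restricted to main cluster 5 (triangles). For Cdkn1c, Mustn1, Sspo, Vmn1r200 and Erbb2 at least 1 subcluster had no UMI, so their fitted values depend on the prior count, and the other values stay above 3.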

How the data were processed

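Single nuclei from 3 mice were measured, 1 library per mouse. The deposited matrices list unnormalized UMI counts by gene for each barcode. Per the file headers the authors ran Cell Ranger 3.0.2, against mm10 (GRCm38). Whether intronic reads were counted is not given in the sources used here. The deposited annotation gives clusters, subclusters and the percent of mitochondrial UMIs of each nucleus, which the authors computed in Seurat, keeping those nuclei that reached 1000 genes and had no more than 5% of UMIs from mitochondrial genes. Its 6 other numeric columns were not used. Doublets were gated out by scatter in the sort, per the study; no doublet caller was run.

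UMI counts were summed per mouse and subcluster (21 libraries) and compared with edgeR 4.0.16 in R 4.3.3 (filterByExpr, TMM, quasi-likelihood test, 1 coefficient per subcluster, no covariate). DESeq2 1.42.0, other filters and scalings, thinning, subsets of nuclei and leaving out each mouse were alternatives; 2 of the 14 were chosen after seeing the data. The study tested single nuclei instead. Libraries of the same mouse come from 1 animal and are paired: their deviations from the subcluster means correlated at a mean r of 0.125 (63 pairs). The mean between mice was -0.06 (126 pairs). Subtracting the subcluster means pulls that value below 0, so it is no independent contrast to the first. The fits were tested on simulated counts, from which no result is used here. Positions came from GENCODE M21 (31011 of 31055 features matched).

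The members and the 34 gene lists were chosen with earlier results of these data known. Genes named were the 15 highest and 10 lowest among those called and separated from the 18 other libraries, the marker and M3 lists, and up to 4 members of each other list with the largest change; further list members were named after their values were seen. Some genes that this rule names are not reported here.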

Additional observations from a re-analysis of the deposited data

How the results depend on the processing

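Against the mean of the other 6 subclusters, the numbers of genes higher and lower (789 and 470) moved most with the scaling and with the UMI window. They were 1278 and 263 with library sizes in place of TMM, 468 and 207 with the other subclusters, but not M3, restricted to nuclei between the 5th and 95th percentiles of M3 (2275.75 to 15407.25 UMIs), and 667 and 280 in libraries thinned to at most 550818 UMIs, the M1 library of mouse 1 staying at 161593. Against M2 (1443 and 1085) the same settings gave 2203 and 590, 671 and 472, and 1007 and 644. Against M1 (954 and 859) they gave 1466 and 605, 278 and 291, and 605 and 445. Fewer nuclei or fewer UMIs enter the 2 depth settings, which also test fewer genes, 11597 and 9637. Against the mean of the others DESeq2 gave 946 and 364, and nuclei with at least 1500 genes gave 854 and 658. Leaving out each mouse in turn gave 580 to 750 higher and 280 to 399 lower against the mean of the others, 1026 to 1419 and 742 to 1149 against M2, and 575 to 736 and 555 to 733 against M1. The number of genes lower than the mean of the others was smallest without mouse 1, at 280. Without mouse 3, 575 were higher than in M1, and without mouse 2, 555 were lower; the cause was not tested. Without the M1 library of mouse 1 the counts were 816 and 497 against the mean of the others and 1448 and 1134 against M2. Against M1 they were then 967 and 1016, with more genes lower than higher. With the mouse as a replicate block, which pairs libraries of the same animal, they were 815 and 480 against the mean of the others, 1489 and 1105 against M2 and 973 and 912 against M1, and the block ended no call of a named gene and added 6.

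Of 1701 values of named genes over the alternatives, 1569 kept their side of the threshold, 86 lost the call and 46 gained it. Among genes called in the main fit or in the alternative, 0 changed direction. Changes of sign in genes called in neither were not counted. The 16 leading genes were tested in 9 to 14 alternatives each, since the low ones fell under the filters of smaller libraries. Among nuclei with at least 1500 genes M3 made up 2.87% of projection neuron nuclei in place of 4.55%. Over the 2304295 UMIs of M3, genes under about 1.30 CPM (3 counts) cannot be told from 0.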

Other observations

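Genes that mark M3 among projection neurons were also counted in other sorted nuclei, and the main cluster of the highest level was not the same for each. Outside the projection neuron subclusters, Cadps2 and Calca were highest in main cluster 8, at 432 ± 175 and 31.1 ± 19.8 CPM (SD, n = 3 mice), where Cnr1 stood at 63.6 ± 42.3. Fst had no comparable level there, with 31.1 ± 38.8 CPM in main cluster 21, on 23 UMIs, as its highest mean. Cdkn1c, Ets1, Smoc2 and Fzd7 were highest in main cluster 18 (24.9 ± 7.9, 96.1 ± 56.2, 47.5 ± 41.3 and 37.4 ± 10.7 CPM). Ednra was highest in main cluster 17 (50.3 ± 31.6), Cnr1 in main cluster 15 (103 ± 41.4) and Sspo in main cluster 16 (20.4 ± 9.3). For Nts and Vmn1r200 no such cluster passed 13.6 and 2.7 CPM, below the M3 means of 39.5 and 27.8. These levels were not compared by a test.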
